A study of Mus musculus with 2 samples.

Results

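The fibroblast growth factor (Fgf) genes described here were 36 genes chosen by name and role. They were 18 secreted ligands, 4 intracellular Fgf homologous factors, 5 receptors, 6 feedback inhibitors and 3 Etv transcription factors. All 36 were found among the 43346 genes of the tables. The data were total RNA from hindbrain, taken at embryonic day 15.5 from healthy B6NCrl mice, in 1 group of 2 pools of mixed sex. The labels name no transgene, mutation or treatment. Replicate 1 pooled 78 embryos and replicate 2 pooled 62. Library input was 10 ng, limited to RNA over 200 nt. With a single tissue and stage there is no contrast between conditions and no p-value. The questions open to these data are which members were present, at which level, in which splice form, and how far the pools differed. In pooled tissue, fewer cells of a type and less RNA per cell cannot be told apart.

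Secreted Fgf proteins bind receptor tyrosine kinases together with heparan sulfate and switch on the Ras and MAP kinase cascade. That cascade raises transcription factors of the Etv group and the inhibitors Spry, Spred and Dusp6, which damp the same signal. The homologous factors Fgf11 to Fgf14 are not secreted and bind voltage-gated sodium channels inside neurons. In the embryonic brain the pathway is known for patterning the border of midbrain and hindbrain and for progenitor growth.

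The libraries held 40020322 and 43263959 estimated counts in genes, of which the members took 0.0763% and 0.0869%. The tissue label was checked against markers. Each of 6 Hox genes listed for hindbrain passed detection, among them Hoxb5 at 92.0 and 113 TPM in replicates 1 and 2. Of 6 forebrain markers only Lhx2 was detected, at 50.7 and 9.96 TPM. TPM, a length-corrected relative abundance, sums to the same total in each library, and detection means 1 TPM or more in both libraries. Pairs of values give replicate 1 first, and means are given ± SD with n = 2. A median over genes is that of the genes' mean levels, and its ± gives the SD of the 2 library medians. Counting intervals are 95% and cover counting error only.

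Of the 36 members 25 were detected (69.4%), beside 63.1% of all nuclear protein-coding genes by the same rule. Their median was 5.41 ± 0.194 TPM, close to the 5.72 ± 0.0212 TPM of all nuclear protein-coding genes. Detection differed by role. All of the receptors, feedback inhibitors, Etv factors and homologous factors were detected, 18 genes in all, against 7 of 18 secreted ligands. In the order of mean levels, the library values of neighbours interleaved in 27 of 35 neighbouring pairs, meaning that their ranges met or overlapped. Such a pair could still keep its order in each library. Fgf12 and Etv4 did so, at 15.6 and 17.4 against 11.5 and 17.2 TPM.

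**Figure D1:**
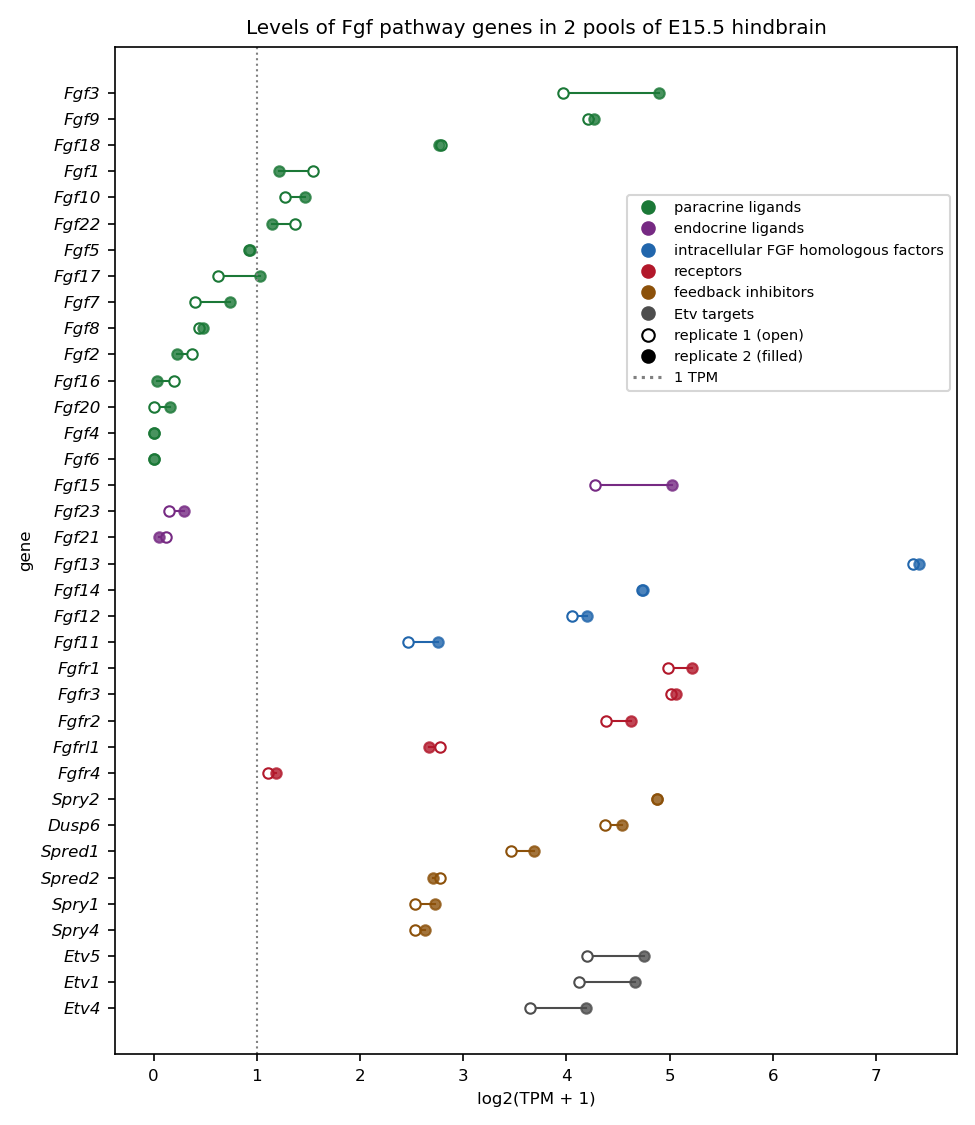
Level of each of the 36 genes on the log2(TPM + 1) axis, grouped and coloured by role. Open and filled circles are replicates 1 and 2, joined by a line, and the dotted line marks 1 TPM. Fgf13 stands far to the right at 164 and 170 TPM, and 11 ligands do not reach the dotted line in both libraries.

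Most of the ligand RNA came from a few genes. Fgf15, Fgf3, Fgf9 and Fgf18 together held 88.0% of the summed ligand TPM in replicate 1 and 91.4% in replicate 2. Fgf15, the mouse counterpart of the endocrine hormone FGF19, had 18.4 and 31.6 TPM, a mean of 25.0 ± 9.34. Fgf3, a paracrine ligand known from the inner ear and hindbrain, had 14.6 and 28.8 TPM, a mean of 21.7 ± 9.99. Both were higher in replicate 2, and their values interleaved with those of their neighbours in the order. Fgf9, a ligand made by neurons and signalling to glia in the cerebellum, had 17.5 and 18.2 TPM, a mean of 17.9 ± 0.474. Fgf18, a ligand of skeletal and neural development, had 5.91 and 5.78 TPM, a mean of 5.85 ± 0.0919. Fgf9 and Fgf18 differed little between the libraries.

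Fgf1, Fgf10 and Fgf22 lay just above the minimum. Fgf1, a ligand without a classical signal peptide, had 1.91 and 1.32 TPM. Fgf10, a mesenchymal ligand that favours the IIIb receptor form, had 1.41 and 1.76 TPM. Fgf22, a ligand known at synapses, had 1.59 and 1.22 TPM on 16 and 13 counts. Its counting intervals were 9.15 to 26.0 and 6.92 to 22.2 counts, and an exon of it overlaps Rnf126 on the other strand at 73.4 and 90.1 TPM. Whether counting used strand is not given in the sources used here, so the Fgf22 value is uncertain.

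The remaining 11 ligands missed the minimum. Fgf5 was closest, at 0.90 and 0.91 TPM on 56 and 60 counts. Fgf17, a relative of Fgf8, reached it in replicate 2 alone, with 0.54 and 1.04 TPM on 22 and 45 counts. Fgf7, a mesenchymal ligand, had 0.32 and 0.67 TPM on 21 and 25 counts. Fgf8, the ligand of the isthmic organizer that patterns midbrain and hindbrain at earlier stages, had 0.36 and 0.39 TPM on 8 and 9 counts. Its counting intervals were 3.45 to 15.8 and 4.12 to 17.1 counts. Over the same tissue 8 of 9 genes listed for the isthmus were detected, led by Gbx2 at 31.0 and 34.7, Otx2 at 28.1 and 17.2 and Pax8 at 14.5 and 18.9 TPM. Of the 9, Otx2, En1 and En2 were lower past 1.5-fold in replicate 2, and En1 had 6.37 and 3.03 TPM. En2, the isthmus gene that was not, had 1.07 and 0.48 TPM.

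Fgf2 had 0.29 and 0.17 TPM on 5 and 2 counts and overlaps Nudt6 on the other strand at 5.23 and 5.73 TPM. The hormones Fgf23 and Fgf21 had 0.11 and 0.23, and 0.09 and 0.04 TPM. Fgf16 had 6 counts in replicate 1 and 1 in replicate 2. Fgf20 had 0 and 1.54 counts, and it overlaps Micu3 on the other strand at 37.4 and 38.3 TPM. Fgf4 and Fgf6, ligands of the early embryo and of muscle, had no count in either library. The counting interval for no count ran to 3.69 counts. A floor was set slightly lower, at 3 counts, which equals 0.0396 and 0.0375 TPM for Fgf4, and 0.102 and 0.0969 TPM for Fgf6. Fgf23 had 5 and 11 counts, above that floor in both libraries. Fgf2 and Fgf16 exceeded it in replicate 1 alone, and Fgf21, Fgf20, Fgf4 and Fgf6 in neither.

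Ligand genes lie in small clusters, read here on GRCm38. Fgf3 (chromosome 7, 144838083 to 144844436), Fgf4 (144847367 to 144865243) and Fgf15 (144896531 to 144900953) follow one another on the plus strand. Gaps of 2.93 and 31.3 kb part them, with no other coding gene between. The outer genes were the 2 highest secreted ligands by mean level, and Fgf4 between them had no count. Fgf6 and Fgf23 lie 44.7 kb apart on chromosome 6 and neither was detected. Exons of Fgf15 overlap the antisense gene Gm26793, which had 6.37 and 12.4 TPM. The estimated counts of Fgf15 were not whole, 813.99 and 1476.67, as when reads are shared between features. Its level is uncertain for the same reason as that of Fgf22.

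The intracellular homologous factors had the highest summed level of any role, 209 and 218 TPM, most of it Fgf13. Fgf13, which binds sodium channels and microtubules in migrating neurons, had 163.52 and 169.52 TPM, above every other member in both libraries. It lay at the 96.0th percentile of nuclear protein-coding genes. Fgf14, a factor linked to spinocerebellar ataxia, had 25.6 and 25.8 TPM. Fgf12, a channel regulator linked to epilepsy, had 15.6 and 17.4 TPM, and Fgf11 had 4.52 and 5.75 TPM, the lowest of the 4. Their known partners were present too: 5 of 6 listed sodium channel genes were detected, led by Scn3a at 37.5 and 38.5 TPM, Scn2a at 31.7 and 31.1 and Scn1a at 11.2 and 12.5 TPM.

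Each homologous factor gene can start from alternative first coding exons, which give proteins with different amino termini. The first coding exons of Fgf13 and Fgf14 are printed to show how unlike these starts are. They come from GENCODE M21 on GRCm38, 5′ to 3′ on the minus strand, with the start codon in capitals. On chromosome X they span 59133877 to 59134063 for Fgf13-201, 59166013 to 59166040 for Fgf13-202 and 59567140 to 59567188 for Fgf13-205. On chromosome 14 they span 124192329 to 124192521 for Fgf14-201 and 124676510 to 124676717 for Fgf14-202.
Fgf13-201: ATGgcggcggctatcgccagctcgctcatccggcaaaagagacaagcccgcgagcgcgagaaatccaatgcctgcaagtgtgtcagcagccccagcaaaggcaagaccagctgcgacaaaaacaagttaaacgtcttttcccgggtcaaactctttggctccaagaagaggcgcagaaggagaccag
Fgf13-202: ATGgctttgttaaggaagtcatattcag
Fgf13-205: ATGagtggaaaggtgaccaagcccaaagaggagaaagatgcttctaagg
Fgf14-201: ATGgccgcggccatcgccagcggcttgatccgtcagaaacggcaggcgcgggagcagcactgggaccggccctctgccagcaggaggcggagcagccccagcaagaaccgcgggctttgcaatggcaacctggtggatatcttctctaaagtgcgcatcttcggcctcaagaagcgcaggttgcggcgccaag
Fgf14-202: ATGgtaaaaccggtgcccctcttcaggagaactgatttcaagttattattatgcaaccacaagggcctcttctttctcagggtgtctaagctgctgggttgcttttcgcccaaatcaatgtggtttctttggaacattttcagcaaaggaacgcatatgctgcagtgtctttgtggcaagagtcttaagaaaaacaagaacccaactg
The exons are 187, 28 and 49 nt long in Fgf13 and 193 and 208 nt long in Fgf14.

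For Fgf13 no single start prevailed. Fgf13-202, the short form of 192 residues also called 1U or B, had 65.2 and 57.5 TPM. Fgf13-201, the form of 245 residues with the long basic terminus also called 1S or A, had 38.5 and 44.2 TPM. The deposited intervals of these forms did not overlap in either library, at 56.5 to 71.2 against 34.5 to 41.1 TPM in replicate 1 and 48.9 to 67.0 against 40.0 to 46.4 TPM in replicate 2. The third exon was used by 4 transcripts with 56.4 and 65.4 TPM together. Of them only Fgf13-203, which starts further inside that exon and encodes 187 residues, is complete. It had 8.94 and 20.4 TPM, with intervals of 1.57 to 14.6 and 9.72 to 25.2 TPM. The others, Fgf13-205 (21.0 and 28.9 TPM), Fgf13-206 (24.2 and 13.3 TPM) and Fgf13-208 (2.26 and 2.92 TPM), are incomplete models of 456 to 617 nt. Fgf13-209, a retained-intron transcript, had 2.79 and 2.42 TPM. As shares of coding transcript TPM, the short form held 37.6 ± 4.45%, the long form 25.2 ± 1.69% and the third exon 37.2 ± 2.76%. As shares of estimated counts, which short models do not inflate, the short form held 45.0% and the long form 36.3%.

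In Fgf14 one start did prevail. Fgf14-202, the form of 252 residues also called 1B, had 21.7 and 22.6 TPM, and Fgf14-201, the form of 247 residues also called 1A, had 3.83 and 3.13 TPM. The 1B start thus held 86.4 ± 2.00% of the gene's TPM, and the libraries differed little. Both Fgf11 transcripts share a first coding exon, so they do not part by amino terminus. Fgf11-201 led in replicate 1 with 57.5% of the gene's TPM, and Fgf11-202 in replicate 2 with 50.5%. Their intervals overlapped in both libraries. The tables held 1 transcript of Fgf12, Fgf12-201 of 243 residues, so the starts of that gene cannot be told apart.

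**Figure D2:**
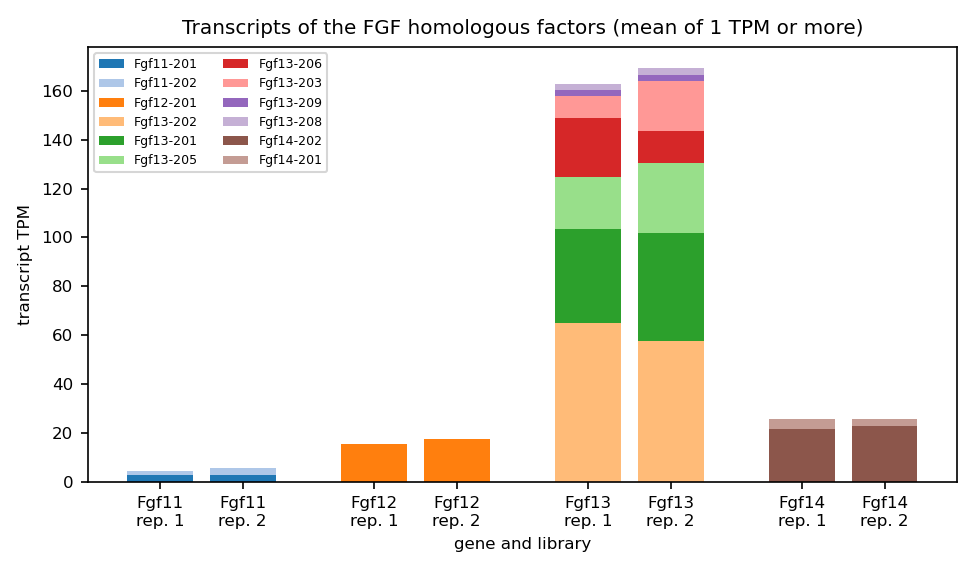
Stacked TPM of each Fgf11, Fgf12, Fgf13 and Fgf14 transcript with a mean of 1 TPM or more, 1 bar per gene and library. The Fgf13 bars are a mixture led by Fgf13-202 and Fgf13-201, and the Fgf14 bars are mostly Fgf14-202, at 85.0% and 87.8%.

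Fgfr1, Fgfr3 and Fgfr2, the receptors with the highest levels, held 92.1% of the summed receptor TPM in replicate 1 and 93.3% in replicate 2. Fgfr1, the receptor widely present in neural progenitors, had 30.6 and 36.1 TPM. Fgfr3, known from ventricular progenitors and astroglia, had 31.4 and 32.4 TPM. The values of Fgfr1 and Fgfr3 interleaved, so their order is not resolved. Fgfr2, a receptor of epithelia and glia, had 19.9 and 23.7 TPM, below both in each library. It shares exon sequence on its own strand with Ctbp2, at 49.2 and 52.4 TPM, and the counts of Fgfr1 and Fgfr2 were not whole. Fgfrl1, a receptor-like protein without a kinase domain, had 5.86 and 5.35 TPM. Fgfr4 had 1.16 and 1.28 TPM on 71 and 81 counts, the lowest of the receptors in each library.

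In Fgfr1, Fgfr2 and Fgfr3 a pair of mutually exclusive exons, IIIb and IIIc, encodes the second part of the third immunoglobulin loop and sets which ligands bind. IIIb is known from epithelia and IIIc from mesenchyme and neural tissue. Here the pairs were found in the annotation by structure, with the upstream exon of each pair taken as IIIb. The Fgfr3 pair, from GENCODE M21 on GRCm38, 5′ to 3′, is printed to show the segment that the shares below are about. Capitals mark bases that are identical when these exons are aligned. They span chromosome 5, 33731281 to 33731431 (IIIb) and 33732117 to 33732261 (IIIc), on the plus strand.
Fgfr3 IIIb: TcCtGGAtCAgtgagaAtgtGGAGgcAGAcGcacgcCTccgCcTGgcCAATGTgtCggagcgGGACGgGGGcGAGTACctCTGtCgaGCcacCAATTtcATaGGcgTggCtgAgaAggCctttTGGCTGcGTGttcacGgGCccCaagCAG
Fgfr3 IIIc: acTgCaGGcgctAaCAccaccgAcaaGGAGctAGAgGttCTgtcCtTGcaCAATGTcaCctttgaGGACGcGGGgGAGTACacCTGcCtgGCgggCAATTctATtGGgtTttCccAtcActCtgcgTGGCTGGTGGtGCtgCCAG
The Fgfr3 exons are 151 and 145 nt long, and 53.8% of the shorter was identical between them.

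IIIc exceeded IIIb in all 3 receptors and both libraries. In Fgfr1 the transcripts with IIIc summed to 23.2 and 29.2 TPM, and the 2 transcripts with IIIb alone were listed at 0. The upper bounds of their deposited intervals summed to 1.32 and 0.976 TPM. Fgfr1-208, a transcript marked for nonsense-mediated decay that holds both exons, had 0.94 and 1.36 TPM. In Fgfr3 IIIc summed to 26.3 and 27 TPM, and IIIb, all of it Fgfr3-211, to 2.28 and 2.77 TPM. IIIc was therefore 91.4 ± 0.932% of the IIIb and IIIc sum in Fgfr3. Fgfr2 had the lowest IIIc share, 74.7% and 83.4%, with 8.16 and 10.4 TPM of IIIc against 2.76 and 2.08 TPM of IIIb. Bounds for Fgfr2 IIIb were wide, since the upper bounds of its 10 transcripts summed to 6.44 and 5.38 TPM and the lower bounds of its 5 IIIc transcripts to 4.46 and 6.27 TPM. The summed bounds of the forms thus overlapped in replicate 1 and not in replicate 2. For Fgfr3 the upper bounds of IIIb summed to 6.20 and 5.93 TPM, below the lower bounds of IIIc at 9.72 and 16.7 TPM.

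The splicing factors Esrp1 and Esrp2, which favour IIIb in epithelia, were not detected, at 0.57 and 0.12 and at 0.13 and 0.16 TPM. Esrp1, on 47 and 8 counts, was lower past 1.5-fold in replicate 2. No other listed splicing regulator that was compared passed it. Epithelial markers were low, with 4 of 4 detected and sums of 16.4 and 19.3 TPM. Among them Cdh1 was lower past 1.5-fold in replicate 2, at 5.20 and 3.18 TPM. The others were higher in replicate 2, short of 1.5-fold. Krt18 had 5.70 and 8.61 TPM, Krt8 had 2.67 and 4.05 TPM and Epcam had 2.87 and 3.47 TPM. Ptbp2, Rbfox2 and Ptbp1, splicing regulators of neural and other cells, were detected, with 127 and 130, 70.7 and 76.5, and 58.5 and 63.3 TPM.

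**Figure D3:**
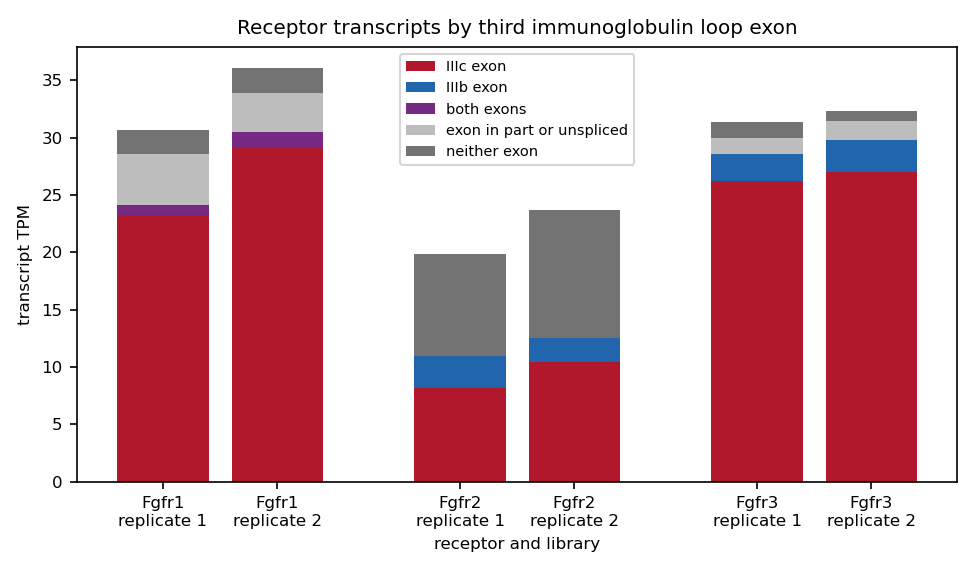
Stacked transcript TPM of Fgfr1, Fgfr2 and Fgfr3 in each library, coloured by which of the alternative exons of the third immunoglobulin loop a transcript holds. IIIc is the largest class of Fgfr1 and Fgfr3, and in Fgfr2 the class with neither exon is slightly larger than IIIc.

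Fgfr2 stood apart in that transcripts with neither exon held 45.1% and 47.2% of its TPM, against 6.63% and 6.09% in Fgfr1 and 4.33% and 2.81% in Fgfr3. Most of this was Fgfr2-217, a short model that encodes 182 residues. Which Fgfr2 transcripts share the exon sequence with Ctbp2 given above was not tested, so this share is uncertain. Fgfr2-217 was the leading Fgfr2 transcript in both libraries, with 5.55 and 6.61 TPM. Next came Fgfr2-207, an IIIc form of 723 residues, at 4.98 and 6.05 TPM, and Fgfr2-215, an IIIc form of 840 residues, at 3.18 and 3.50 TPM. The IIIb form Fgfr2-211 had 1.22 and 1.09 TPM, and the retained-intron transcript Fgfr2-221 had 1.64 and 2.45 TPM. The unspliced or partly spliced class was largest in Fgfr1, where the retained-intron transcript Fgfr1-206 had 4.36 and 3.40 TPM. Fgfr3-205, of the same class, had 1.47 and 1.68 TPM.

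The receptors also differ by an exon upstream, which encodes the first immunoglobulin loop and was chosen for description after the values were seen. It is 267 nt in Fgfr1 (chromosome 8, 25555508 to 25555774) and Fgfr2 (chromosome 7, 130242378 to 130242644), and 270 nt in Fgfr3 (chromosome 5, 33727647 to 33727916). Among coding transcripts with IIIb or IIIc, those with the loop held 84.6% and 76.6% of the TPM in Fgfr1, 29.1% and 28.0% in Fgfr2 and 100% in Fgfr3. All 6 Fgfr3 models counted here hold the exon, so the Fgfr3 share was fixed by the annotation. Fgfr1-202, with the loop and 820 residues, led at 12.8 and 15.7 TPM, ahead of Fgfr1-201, also with it, at 6.11 and 6.14 TPM. Fgfr1-203, without it and with 733 residues, had 3.58 and 6.81 TPM, with intervals of 0.377 to 5.23 and 4.74 to 8.62 TPM. The main Fgfr3 transcripts could not be separated so well. Fgfr3-201, at 9.87 and 12.5 TPM, had intervals of 0.158 to 12.9 and 8.33 to 15.5 TPM, which overlapped those of Fgfr3-209 at 8.89 and 9.76 TPM. Fgfr3-210, like both an IIIc form, had 6.19 and 3.55 TPM.

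Fgfr1, Fgfr2, Fgfr3, Fgf13 and Fgf14, the examined genes with several transcripts and at least 5 TPM in each library, all had the same leading transcript in both. Over all such genes, 93.6% did. Below that level Fgfr4 kept its leader, Fgfr4-201 at 0.80 and 0.87 TPM, and Fgf11 did not. Fgf12, with 1 transcript, could not differ.

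All 6 feedback inhibitors were detected. Spry2, which blocks signalling downstream of the receptor, had 28.4 and 28.5 TPM and was the highest. Spry1 had 4.78 and 5.63 TPM and Spry4 had 4.77 and 5.19 TPM, so Spry2 exceeded both in each library. Dusp6, a phosphatase that switches off MAP kinase signalling, had 19.8 and 22.2 TPM. Spred1, an inhibitor of Ras activation, had 10.1 and 11.8 TPM, above Spred2 at 5.83 and 5.53 TPM. None of these 6 genes differed between the pools by 1.5-fold, and their folds ran from 0.980 to 1.16.

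The Etv factors, transcription factors that Fgf signalling raises in many tissues, had higher values in replicate 2, but none passed the 1.5-fold call described below. Etv5 had 17.4 and 26.0 TPM, Etv1 had 16.5 and 24.3 TPM, and Etv4 had 11.5 and 17.2 TPM. Summed, they had 45.3 and 67.5 TPM, while the 6 feedback inhibitors had 73.6 and 78.8 TPM. Folds were 1.27 to 1.48 for the Etv genes.

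The rest of the pathway was largely present. Each of the 18 listed adaptor and Ras-MAPK genes passed 1 TPM in both libraries. Their median was 51.1 ± 0.378 TPM, and Map2k2, at 198 and 209 TPM, was the highest. Hras had 149 and 147 TPM. Of 12 proteoglycan genes, whose heparan sulfate chains hold Fgf at the receptor, 12 were detected, led by Sdc3 at 117 and 147, Gpc2 at 119 and 117 and Agrn at 92.3 and 94.0 TPM. The 15 genes that build or edit heparan sulfate were detected too, led by Sulf2 at 89.2 and 101, Ext2 at 56.0 and 60.5 and Sulf1 at 30.8 and 39.0 TPM. Of 15 further modulators 14 were detected, led by Rasa1 at 53.7 and 48.8, Fgfbp3 at 46.3 and 50.4 and Dusp4 at 35.7 and 42.2 TPM. Among these Fgfbp1 and Lgals3 were lower past 1.5-fold in replicate 2. Dusp9 missed the minimum at 0.81 and 0.66 TPM. Neither klotho co-receptor, which endocrine Fgf hormones need in other organs, reached it in both libraries. Klb, the partner of Fgf15 in liver, had 0.06 and 0.14 TPM. Kl had 0.85 and 1.00 TPM and so reached it in replicate 2 alone.

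Between the pools, Fgf3, Fgf17 and Fgf15 were the members that differed most. Ratios are replicate 2 over replicate 1 of counts scaled with edgeR's TMM factors, for the 27 members with a mean count of 20 or more. Each pool is 1 library, so a ratio compares these libraries and has no replicate check. Past 1.5-fold were 3 members of 27, all higher in replicate 2, and none lower. Over all 17048 genes compared, 6.45% passed 1.5-fold, 2.23% higher and 4.22% lower in replicate 2. It was 0.614% of the 10428 genes whose mean count reached 500, a minimum chosen after the values were seen. The 3 members were counted at the minimum of 20, so this last share is not their match. Fgf3 and Fgf15 reached 500, and Fgf17, on 22 and 45 counts, did not.

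Fgf3 had 779 and 1638 counts, a fold of 1.95 with a counting interval of 1.79 to 2.13. Fgf15 had 813.99 and 1476.67 counts, a fold of 1.68 (1.54 to 1.83). Fgf17 had 22 and 45 counts, a fold of 1.88 with the wide interval of 1.11 to 3.31. On the other side of the threshold, Etv4 had 538 and 857 counts and a fold of 1.48 (1.32 to 1.65), and Etv5 had 1741 and 2730 counts and a fold of 1.45 (1.37 to 1.54). Etv1 had 1232.66 and 1689.18 counts and a fold of 1.27 (1.18 to 1.37). Its TPM moved more, since the mean transcript length assigned to it was 2995 nt in replicate 1 and 2644 nt in replicate 2. Fgf1 was the member furthest the other way, with 150 and 110 counts and a fold of 0.681 (0.527 to 0.875).

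The median log2 ratio over the 27 members was 0.14, beside 0.01 over all nuclear protein-coding genes compared. Of the 27 intervals 14 excluded a ratio of 1, beside 38% of the intervals over all genes compared. Receptors ranged from 0.905-fold (Fgfrl1) to 1.14-fold (Fgfr2), and the homologous factors from 0.990-fold (Fgf14) to 1.26-fold (Fgf11).

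**Figure D4:**
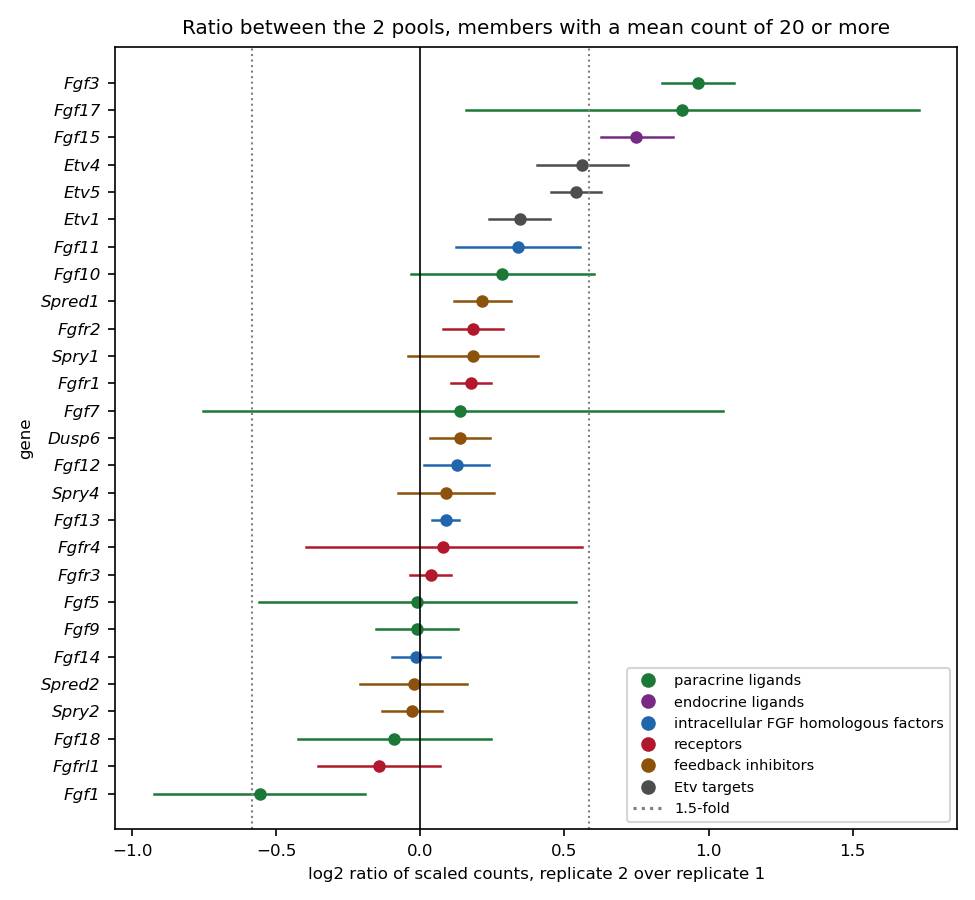
Log2 ratio of scaled counts, replicate 2 over replicate 1, for the 27 members compared, coloured by role. Bars are 95% counting intervals and dotted lines mark 1.5-fold. Fgf3, Fgf17 and Fgf15 lie past the right line, and the 3 Etv genes lie to its left, at 1.27-fold to 1.48-fold.

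Markers of other cells moved between the pools as well. The 6 choroid plexus markers summed to 953 and 1286 TPM, and 6 cartilage and bone markers to 24.3 and 32.3 TPM, both sums being higher in replicate 2. Within the choroid list Folr1 was higher past 1.5-fold, at 23.8 and 41.4 TPM, and Otx2 lower past it, at 28.1 and 17.2 TPM. The 6 hindbrain Hox genes summed to 239 and 279 TPM. The 7 markers of meninges and fibroblasts, all detected, summed to 1332 and 968 TPM, and the 5 markers of peripheral nerve and ganglia, all detected, to 119 and 83.5 TPM. The 5 proliferation markers, all detected, summed to 315 and 256 TPM. The 6 forebrain markers summed to 51.9 and 19.9 TPM, and 4 of the 6 were higher past 1.5-fold in replicate 2 while Lhx2 was lower. Neuronal markers summed to 3384 and 3498 TPM and radial and astroglial markers to 2614 and 2658 TPM, with less change. No listed marker of these lists was at 0 in both libraries. Of the choroid markers 5 of 6 were detected, with Ttr at 868 and 1183 TPM, and of the cartilage and bone markers 2 of 6. Of 5 inner ear markers 2 were detected, with list sums of 24.3 and 23.2 TPM. The sums hide unlike changes. Pou4f3 was lower past 1.5-fold in replicate 2, at 5.06 and 0.71 TPM on 296 and 44 counts. The detected Myo7a, at 13.2 and 15.5 TPM, and Otof, at 5.72 and 6.69 TPM, were higher, short of 1.5-fold. Microglial markers summed to 137 and 110 TPM, erythroid markers to 15771 and 12383 TPM, and endothelial and pericyte markers to 285 and 278 TPM, with all members of these lists detected. The part of any of these cells in the ratios of the members was not tested.

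**Figure D5:**
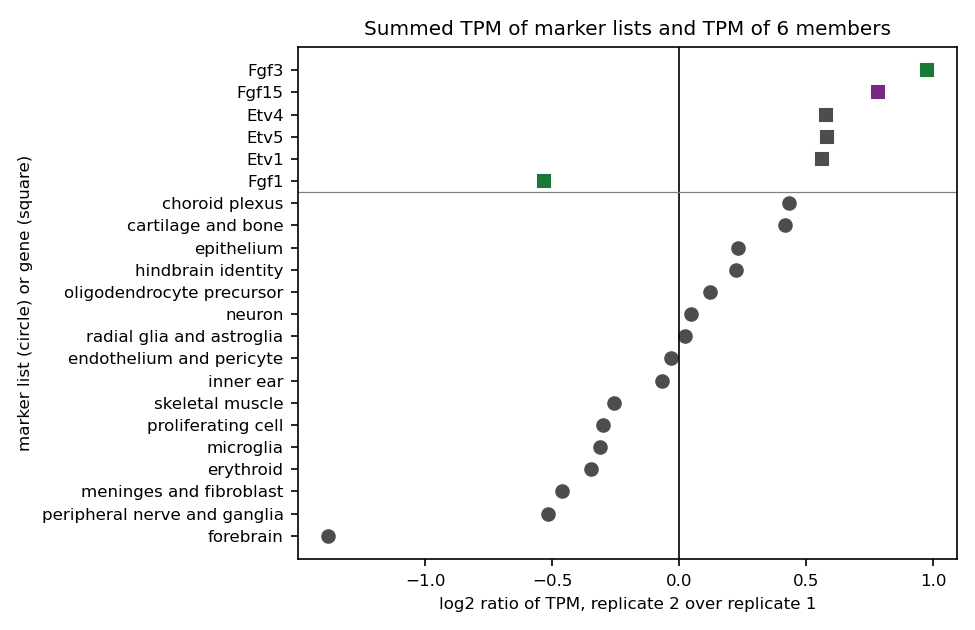
Log2 ratio of TPM, replicate 2 over replicate 1, for 6 members (squares) and for the summed TPM of 16 marker lists (circles). The members were picked after their values were seen. Among the sums, choroid plexus, mostly Ttr, lies furthest right. The forebrain sum lies furthest left through Lhx2, while 4 of its 6 genes were higher past 1.5-fold in replicate 2.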

How the data were processed

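Members and gene lists were chosen with earlier results of these data known. Extraction used mirVana and libraries a SMARTer ultra low input kit, per the labels' protocols. The assembly was mm10 and the annotation GENCODE M4, per the notes deposited with the files, with each library quantified alone. For the aligner, quantifier and strand setting, the answer is the same: not given in the sources used here. Estimated counts, as the authors deposited them, carry no normalization and were rounded here only for intervals. The deposited TPM values are scaled over all features, spike-ins included. The deposited FPKM values and the deposited bounds of the TPM interval, a signal per the file headers, served as alternatives or to show uncertainty. Symbols, exons and positions came from GENCODE M21 (GRCm38, the assembly of mm10), matched without version: 42462 of 43346 genes matched, and 63 of the 70 transcripts examined had the same length in both releases. Features with numeric identifiers, which held 5.61e-05% and 2.69e-05% of counts, and spike-ins, 2.86% and 3.09%, were left out of library sizes and comparisons.

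Ratios used TMM factors from edgeR 4.0.16 (R 4.3.3) and a prior count of 0.5, with exact (Clopper-Pearson) intervals of the share of counts; intervals of counts are exact Poisson. DESeq2 1.42.0 size factors, library and spike-in totals, other minimums, pseudocounts and posterior means were alternatives. The labels give biological replicates 1 and 2; these differed beyond sampling noise (chi-square 12.4 per degree of freedom) and entered as separate replicates. Simulated data for 17075 genes tested the ratio step, with Poisson counting error as the only noise. In them 100% of the 100 genes given a 2-fold change passed 1.5-fold, as did 1.61% of unchanged genes. The real pools varied more than that, so these shares do not carry over to them. A coding gene near 1 TPM had a median of 53.0 and 59.3 counts. All 36 members are named; of other lists, the 3 highest genes and those not detected; of transcripts, all at 1 TPM or more in both libraries. Spry3 was not matched. Some items that these rules would name are not reported here.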

Additional observations from a re-analysis of the deposited data

How the results depend on the processing

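Detection of members ranged from 21 to 27 of 36 over its alternatives, and the 3 receptors kept IIIc above IIIb in all of theirs. The median level was 6.88 over TPM of nuclear protein-coding genes and 3.35 in FPKM, which rescale every gene. Members past 1.5-fold between the pools numbered 8 with no filter on low counts, 0 at 2-fold and 8 at a threshold of a 25% rise or the matching fall. Of these last 8, all but Fgf1 were higher in replicate 2, and 6.63% of all 17048 genes compared were higher past that threshold. The share of all genes lower past it was not computed, nor were shares for the unfiltered and 2-fold counts. Fgf3 and Fgf15 passed 1.5-fold under all 6 other scalings; Fgf17 did under 5 of 6 and had a fold of 1.32 in TPM with a pseudocount of 1, Fgf1 was past it under spike-in totals at 0.629, and Fgf7, below it on scaled counts, had 1.83 in TPM with a pseudocount of 0.1. Fgf17 was left out by a mean count minimum of 100, which gave 2 members. On posterior mean TPM the IIIc share was 98.3% in Fgfr1 and 90.4% in Fgfr3, and leaders were shared by 6 of 8 genes, against 7 on deposited TPM, both counting Fgf12 with its single transcript. By estimated counts Fgf13-201 held 36.3% and Fgf13-202 45.0%. Co-receptors detected numbered 1 at a 0.5 TPM minimum, and 0 to 1 with a replicate left out. Of 342 values for single genes under alternatives, 71 moved. Reversal was scored only for folds already past 1.5, and 0 reversed. Folds nearer 1 could cross it unscored. Under spike-in totals Fgf13 went from 1.06 to 0.982 and Fgfr3 from 1.02 to 0.947. Scaling by spike-ins moved the median gene by -0.11 (log2). No paired analysis was possible because the data hold 1 group, and leaving out a library leaves no ratio. The floor of 3 counts was a fixed setting and was not derived from the depth of these libraries.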
